A study of Mus musculus with 2 samples.

Results

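Cells of the neutrophil lineage were found in a sort of regulatory T cells (Tregs) from the spleens of mice aged 7 days. Transcript molecules had been tagged in droplets with unique molecular identifiers (UMIs). Cells were kept where 300 or more genes were detected and mitochondrial transcripts gave no more than 5% of UMIs. A cell was selected as neutrophil-lineage where UMIs of 6 granule genes (Camp, Ngp, Ltf, Lcn2, S100a8 and S100a9) made up at least 5% of its UMIs and where 5 T cell genes (Cd3d, Cd3e, Cd3g, Trac and Trbc2) together gave at most 3 UMIs. This rule selected 104 of 21820 kept cells, 41 in the WT library and 63 in the KO library. Since the cells were selected on these 11 genes, the levels of these genes in them, and their difference from T-lineage cells, are a description.

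Both libraries came from C57BL/6J mice that carried Foxp3Cre, a knock-in that places YFP and an improved Cre recombinase behind an internal ribosome entry site at the Foxp3 locus, so that Cre is driven by the Foxp3 promoter. WT mice had intact Zfp335 and KO mice had floxed Zfp335 alleles (Foxp3Cre Zfp335fl/fl). Living YFP+ cells (7AAD-) had been sorted from spleens after lysis of red cells, and the methods also name a CD4 gate. There was 1 library per genotype and the number of mice in each is not stated, so no test between genotypes was possible, and every interval given here is a 95% interval that covers counting error only.

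Zfp335, a zinc finger transcription factor and the targeted gene, gave 1 UMI in the WT neutrophil-lineage cells and 1 UMI in the KO cells. A count of 3 UMIs would correspond to 9.34 CPM (UMIs of a gene summed over cells, per 1000000 summed UMIs) in WT and 13.4 CPM in KO, so its level was not detectable here. In T-lineage cells (at least 4 T gene UMIs and under 5% granule UMIs, 6870 WT and 12194 KO cells), Zfp335 was at 8.05 CPM in WT and at 0.860 CPM in KO. The libraries shared 70 deposited cell barcodes, of which 29 were kept in both and 0 belonged to a neutrophil-lineage cell of either library.

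Neutrophils develop from myeloid precursors in the bone marrow, and in newborn mice also in the spleen and liver. During this maturation granules are filled in a fixed order: azurophil granules with myeloperoxidase and elastase arise in dividing promyelocytes, specific granules with lactoferrin and cathelicidin in myelocytes, and gelatinase granules later, in cells that no longer divide. Factors of the C/EBP family, among them C/EBPε, are known to act on promoters of specific granule genes. Neutrophils express neither Foxp3 nor the T cell receptor.

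Since the granule genes are expressed together, the 250 bases before their transcription starts are shown for those that hold the C/EBP-type motif TTNNGCAA on either strand (RefSeq, build GRCm38.p6; 5′ to 3′ along the strand of the gene, with the motif in capitals). The windows were chr9:110419558-110419807 on the plus strand for Ngp (neutrophilic granule protein), chr9:111019042-111019291 on the plus strand for Ltf (lactoferrin), chr2:32387740-32387989 on the minus strand for Lcn2 (lipocalin 2, which binds bacterial siderophores) and chr3:90695722-90695971 on the minus strand for S100a9, a subunit of calprotectin.
Ngp: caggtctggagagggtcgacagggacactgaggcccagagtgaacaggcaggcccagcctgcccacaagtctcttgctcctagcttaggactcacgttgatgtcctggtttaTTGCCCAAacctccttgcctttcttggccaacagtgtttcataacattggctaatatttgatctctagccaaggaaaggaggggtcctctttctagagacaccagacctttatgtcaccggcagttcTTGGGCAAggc
Ltf: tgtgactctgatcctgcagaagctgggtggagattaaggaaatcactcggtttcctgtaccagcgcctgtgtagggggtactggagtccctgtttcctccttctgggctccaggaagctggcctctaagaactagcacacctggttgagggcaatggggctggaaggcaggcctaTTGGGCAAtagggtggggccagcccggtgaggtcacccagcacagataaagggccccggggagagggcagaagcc
Lcn2: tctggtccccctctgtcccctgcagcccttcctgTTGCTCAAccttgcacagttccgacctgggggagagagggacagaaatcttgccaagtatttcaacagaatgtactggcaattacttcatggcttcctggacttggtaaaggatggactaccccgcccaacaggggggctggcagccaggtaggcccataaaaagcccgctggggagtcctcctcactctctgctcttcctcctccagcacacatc
S100a9: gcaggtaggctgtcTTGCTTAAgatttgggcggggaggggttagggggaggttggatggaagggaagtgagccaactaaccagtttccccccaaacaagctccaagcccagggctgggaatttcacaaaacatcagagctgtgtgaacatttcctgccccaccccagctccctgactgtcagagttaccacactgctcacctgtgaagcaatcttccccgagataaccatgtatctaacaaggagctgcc
Ngp held 2 matches, of which the capitals nearer to the start begin 11 bases before it, and Ltf, Lcn2 and S100a9 held 1 each. The windows of Camp (cathelicidin) and S100a8, the other calprotectin subunit, held no match. Of all 32851 promoter windows, 9.56% held the motif, against 4 of the 6 granule genes. Outside these 6 genes, windows of Retnlg and of a Foxp3 start held a match, and those of Stfa2 and of another Foxp3 start held none. A match describes letters in the window and not a bound site.

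The selected cells carried a broad set of neutrophil transcripts beyond the genes of the rule. Summed S100a9 was at 127683 CPM in WT and 121450 CPM in KO, and Camp at 23522 and 25599 CPM. Outside the rule, the gene with the highest ratio to T-lineage cells was Retnlg, a resistin-like gene of late neutrophils, at 7987 CPM in WT and 6628 CPM in KO, against 4.00 and 9.20 CPM in T-lineage cells. It was followed by Stfa2, a stefin A cysteine protease inhibitor, at 10265 and 9828 CPM. Among the 15 genes with the highest such ratios were 6 further stefin family genes, Chil3 (a chitinase-like protein of immature neutrophils), Mmp8 (neutrophil collagenase), Mmp9 (gelatinase B), Cd177 (a neutrophil surface antigen), Wfdc21, Lrg1 and Chil1. Thus both markers outside the rule, Retnlg and Stfa2, went with the label.

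**Figure D1:**
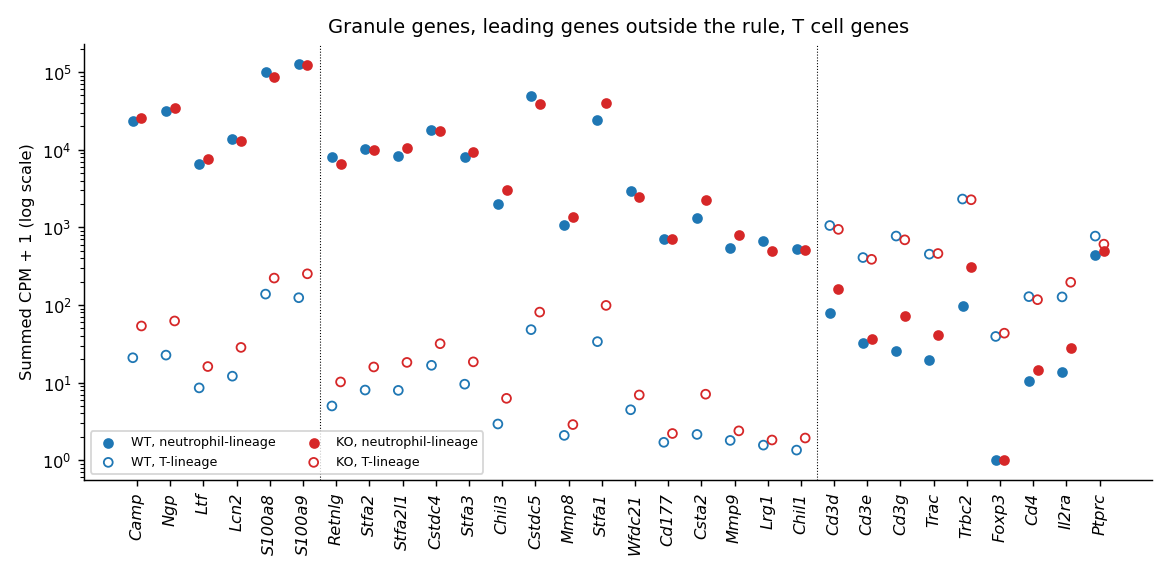
Summed CPM plus 1 (log axis) of the 6 granule genes of the rule, the 15 leading genes outside it and 9 T cell or leukocyte genes, in neutrophil-lineage cells (filled) and T-lineage cells (open) of the WT (blue) and KO (red) libraries. Granule and leading genes lie above T-lineage cells in both libraries, Foxp3 lies at 0 in neutrophil-lineage cells, and the open circles of the granule genes, which sum to 320 CPM in WT and 628 CPM in KO, lie higher in KO.

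Gene lists of neutrophil biology were compared with T-lineage cells over genes with at least 50 UMIs. Of all 1038 such genes, 22.6% were at least 2-fold higher and 25.6% at least 2-fold lower in the neutrophil-lineage cells of both libraries. Of specific granule genes outside the rule, 11 of 11 were higher, among them Lyz2 (lysozyme, 10147 CPM in WT and 9677 CPM in KO) and Pglyrp1 (a peptidoglycan-binding protein, 3726 and 3717 CPM). Of gelatinase granule and late genes, 10 of 11 were higher. All 7 measured stefin genes, 8 of 10 adhesion and chemoattractant receptor genes and 5 of 6 NADPH oxidase genes were higher. For the oxidase, Cybb, its catalytic subunit, was at 492 and 654 CPM against 6.71 and 6.59 CPM in T-lineage cells, whereas Rac2, a GTPase that T cells also express, was at 1450 and 1767 CPM against 1287 and 1384 CPM. All 4 measured granulocyte transcription factors were higher, with Cebpe at 610 CPM in WT and 525 CPM in KO and Spi1 (PU.1) at 554 and 441 CPM. These counts describe the selected cells and support nothing about the rule that selected them.

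Transcripts of Foxp3, Cd4 and Il2ra were at or near 0. Foxp3 gave 0 UMIs in the 41 WT and the 63 KO cells, against 38.3 and 42.3 CPM in T-lineage cells. The floor of 3 UMIs would correspond to 9.34 and 13.4 CPM. Cd4 gave 3 UMIs in each library. Il2ra, the alpha chain of the interleukin-2 receptor, gave 4 UMIs in WT and 6 in KO. Ikzf2, another gene of the T cell and Treg list, was found in 8 WT cells (19.5%) and 9 KO cells (14.3%). In T-lineage cells it was found in 82.7% and 61.2%. After thinning each cell to 1000 UMIs, 28 of 38 WT cells (73.7%, 56.9 to 86.6) and 27 of 50 KO cells (54.0%, 39.3 to 68.2) held Retnlg, against 0.447% and 1.62% of T-lineage cells. Without thinning, these shares were 78.0% and 61.9% in neutrophil-lineage cells, at a median of 6200 UMIs in WT and 2592 UMIs in KO, and 2.82% and 3.23% in T-lineage cells, at a median of 5621 and 3026 UMIs. Retnlg was thus far above the level found in cells that should lack it.

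The granule share of the selected cells ranged from 5.03% to 44.3% with a median of 26.1% in WT, and from 5.30% to 41.2% with a median of 20.6% in KO. Between 5% and 10% lay 4 WT and 21 KO cells. The 4 WT cells had 699, 734, 775 and 11928 UMIs and held no Retnlg UMI. The 21 KO cells had a median of 951 UMIs, and Retnlg was present in 6 of them, at 1200 CPM against 7182 CPM in the 42 KO cells with at least 10% granule UMIs. Their haemoglobin UMIs made up 1.77% of all UMIs, against 0.0751% in those 42 cells. Their T gene UMIs summed to 2401 CPM against 427 CPM. A limit on raw UMIs allows a higher CPM in shallower cells, so these capped values say nothing about the label. T cell genes outside the rule are not capped by that limit and gave 205 UMIs in all KO neutrophil-lineage cells. Of these, 131 lay in the 42 cells, which held 203834 UMIs, at 643 CPM against 4012 CPM in KO T-lineage cells. The rest lay in the 21 low-share KO cells, which held 20827 UMIs. In CPM, these T cell genes were thus closer to KO T-lineage cells in the 21 cells than to the level of the 42 cells. Whether these 21 cells are of the neutrophil lineage was not tested. Just outside the threshold, at 4% to 5%, lay 3 WT and 6 KO cells, and just inside, at 5% to 6%, lay 1 WT and 7 KO cells. Over all T gene counts, 23 WT and 606 KO kept cells had granule shares from 1% to 5%, with a median of 1504 and 1160 UMIs. The low-share cells of both libraries thus held little Retnlg. In KO this did not set them apart, as the 16 KO cells with shares of 30% and over held Retnlg at 263 CPM. Stfa2 was present in 1 of the 4 WT cells and in 18 of the 21 KO cells, there at 2305 CPM against 10597 CPM in the 42 KO cells. Values for the 37 WT and 42 KO cells with at least 10% are given beside the main ones.

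**Figure D2:**
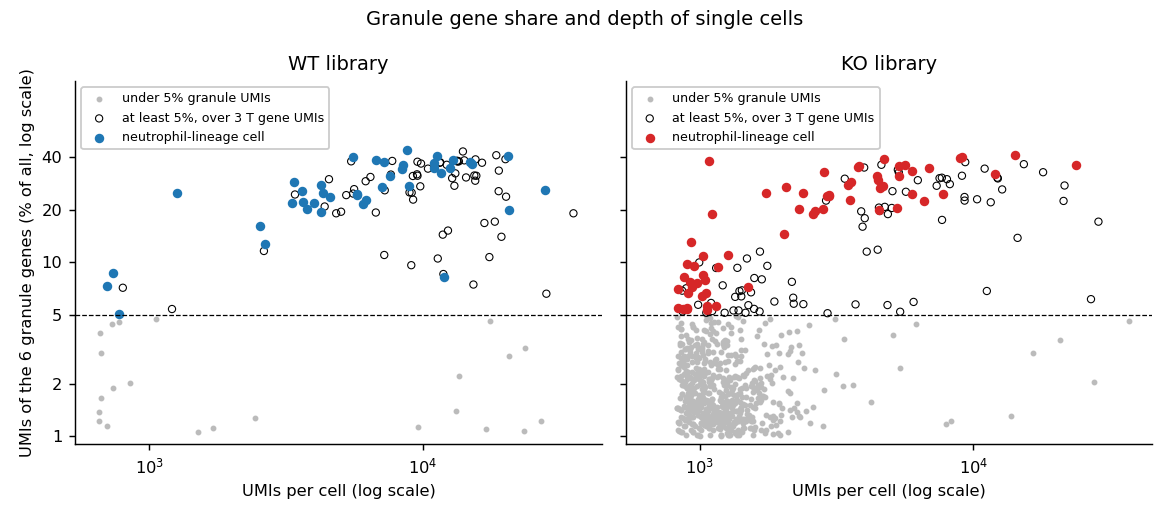
Granule gene share (percent of UMIs, log axis) against UMIs per cell (log axis) for kept cells with a share of at least 1% in each library, with the 5% threshold dashed. Filled points are the 41 WT and 63 KO neutrophil-lineage cells, open circles are cells over the T gene limit, and grey points lie under 5%, where KO held 606 cells and WT 23.

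The T gene limit removed many deep cells with the same transcripts. At a granule share of at least 5%, 63 WT cells with a median of 11542 UMIs and 81 KO cells with a median of 4003 UMIs had over 3 T gene UMIs. In these cells T gene UMIs summed to 761 CPM in WT and 1873 CPM in KO, against 4995 and 4739 CPM in T-lineage cells. At a share of at least 10%, cells over the limit numbered 57 in WT and 43 in KO, and Retnlg was found in 40 and 33 of them. A limit on raw UMIs thus fell harder on the deeper cells, and the WT cells were the deeper ones. Whether these cells were single neutrophils with free T cell RNA or droplets with a T cell was not tested.

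**Figure D3:**
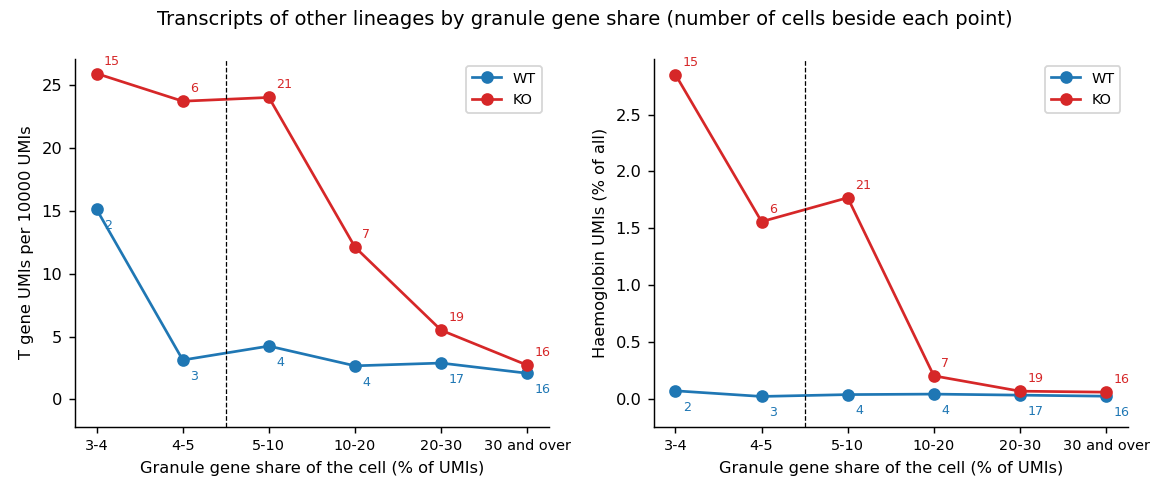
T gene UMIs per 10000 UMIs (left) and haemoglobin UMIs in percent (right) of cells within the T gene limit, by granule gene share, with the number of cells beside each point and the 5% threshold dashed. KO points lie above WT points in the plotted ranges and are at 23.7 per 10000 and 1.56% for shares of 4% to 5% and at 2.72 per 10000 and 0.0637% for shares of 30% and over. The limit on raw T gene UMIs itself allows higher T gene values in shallower cells.

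Neutrophil-lineage cells made up 0.509% of kept cells in WT (exact interval 0.366 to 0.690%) and 0.458% in KO (0.352 to 0.585%). The difference of KO minus WT was -0.0515 percentage points (-0.258 to 0.133), which includes 0. With at least 10% granule UMIs the shares were 0.459% in WT and 0.305% in KO. With at most 10 T gene UMIs per 10000 in place of the raw limit, an alternative chosen after seeing the data, they were 1.07% in WT and 0.400% in KO, and the difference was -0.668 points (-0.934 to -0.433). With no limit on T genes they were 1.29% and 1.05%. KO was over WT at a granule share of at least 3% (0.571% in WT and 0.610% in KO) and without the mitochondrial filter (0.296% and 0.359%), so that neither the order of the libraries nor the size of the gap held across rules.

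The cells spanned a range from transcripts of immature to transcripts of late neutrophils. They were ordered by the part of S100a8 and S100a9 among the UMIs of the 6 granule genes and split into 3 ranges at 68.1% and 80.0%, with 10, 12 and 19 WT cells and 24, 24 and 15 KO cells from low to high. As the order itself uses genes of the rule, Camp, at 43293, 24748 and 4903 CPM in WT and 36077, 24579 and 6347 CPM in KO, only describes it. Genes outside the rule moved along the same order in both libraries. Chil3 was at 4354, 1703 and 240 CPM in WT and at 4668, 2892 and 100 CPM in KO. Retnlg went the other way, from 598 over 4787 to 18280 CPM in WT and from 469 over 7003 to 18514 CPM in KO. Mmp9 was at 277, 355 and 988 CPM in WT and at 277, 866 and 1656 CPM in KO.

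The chemokine receptor Cxcr2, which mature neutrophils use to leave the marrow, was at 55.4, 94.6 and 221 CPM in WT and at 108, 177 and 301 CPM in KO. Il1b, the inflammatory cytokine interleukin-1β, was at 0, 7.89 and 221 CPM in WT and at 0, 0 and 326 CPM in KO. Cebpe, which acts in myelocytes, was at 953, 639 and 278 CPM in WT and at 770, 443 and 226 CPM in KO. Other genes of immature cells did not follow the order. Fcnb, a ficolin of specific granules, was at 487, 513 and 125 CPM in WT and at 361, 433 and 25.1 CPM in KO. The azurophil granule list was at 266, 591 and 509 CPM in WT and at 96.2, 167 and 75.3 CPM in KO. Of the 104 cells, 25 lay within 2 percentage points of a boundary, so the ranges are parts of a continuum and not cell types.

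**Figure D4:**
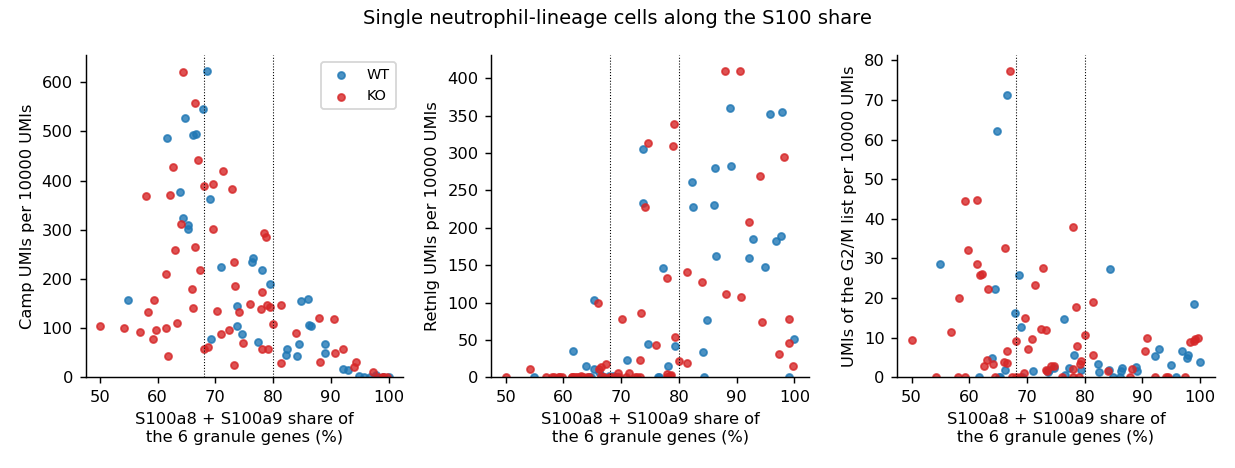
UMIs of Camp (left), Retnlg (middle) and the 14 genes of the G2/M list (right) per 10000 UMIs in each neutrophil-lineage cell, against the percentage of S100a8 and S100a9 among the 6 granule genes, with the range boundaries of 68.1% and 80.0% dotted. WT (blue) and KO (red) cells overlap along the axis, with Camp and G2/M high at the left and Retnlg high at the right.

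Cells with 10 or more UMIs of genes of cell division were a minority. At least 10 UMIs of the G2/M list, genes of mitosis such as Ube2c, Top2a and Mki67, were found in 8 of 41 WT cells (19.5%, 8.82 to 34.9) and in 6 of 63 KO cells (9.52%, 3.58 to 19.6). Chosen on these UMIs, the 8 cells held 89.0% of the list's UMIs in WT and the 6 cells 77.8% in KO, which is a description only. They were deep, with medians of 13728 UMIs in WT and 9422 UMIs in KO against 5548 and 2067 UMIs in the other cells, and the count of such cells follows depth. After thinning to 1000 UMIs, Mki67 or Top2a was found in 4 of 38 WT cells (10.5%, 2.94 to 24.8) and in 11 of 50 KO cells (22.0%, 11.5 to 36.0), with overlapping intervals. With at least 10% granule UMIs, the thinned counts were 4 of 37 in WT (10.8%, 3.03 to 25.4) and 4 of 41 in KO (9.76%, 2.72 to 23.1). T-lineage cells held either gene in 23.6% and 29.8% after the same thinning. The G2/M list had a summed KO to WT ratio of 1.15 (1.000 to 1.33), and 1 KO cell held 51.1% of the list's KO UMIs. Retnlg was at 39.6 CPM in the WT cells with G2/M transcripts and at 13139 CPM in the other WT cells, and at 89.4 and 9413 CPM in KO. Chil3 was at 3901 against 723 CPM in WT and at 5870 against 1853 CPM in KO. Transcripts of division and of late neutrophils were thus mostly in different cells.

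Late cells, in which Retnlg UMIs exceeded Camp UMIs, numbered 18 of 41 in WT (43.9%, 28.5 to 60.3) and 17 of 63 in KO (27.0%, 16.6 to 39.7), with overlapping intervals. With at least 10% granule UMIs they numbered 18 of 37 (48.6%, 31.9 to 65.6) and 14 of 42 (33.3%, 19.6 to 49.5).

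Stefin A genes, a cluster of cytosolic inhibitors of cathepsins, gave 12.0% of all UMIs of the WT cells and 12.8% of those of the KO cells over 9 genes on chr16:36156811-36455392, a KO to WT ratio of 1.07 (1.05 to 1.09). The last 400 transcript bases of Stfa1 and Cstdc5 are 98.0% identical, and those of Cstdc5 and Cstdc6 90.2%, so that reads may be split between these copies and their single values are uncertain. Stfa1 was at 24020 CPM in WT and 39580 CPM in KO, and Cstdc5 at 48799 and 38676 CPM. Their sum was closer, at 72818 CPM in WT and 78256 CPM in KO.

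Single cells of the WT library fell apart in how these UMIs were split. The Stfa1 share of the UMIs of Stfa1 and Cstdc5 was computed in cells with at least 20 such UMIs, 38 in WT and 49 in KO, and ranges were set at 10% and 45% after the values were seen. In WT, 13 cells lay between 0% and 0.676%, 11 between 18.3% and 37.8%, and 14 between 49.9% and 97.6%. In KO, 0 cells lay under 10%, 16 lay between 28.6% and 44.1% and 33 between 47.0% and 63.0%. WT cells over the T gene limit, which the rule left out, showed the same gap, with 27 of 57 at 4.76% or less, 15 between 16.2% and 44.5% and 15 between 46.9% and 68.5%, and 0 of 43 such KO cells lay under 10%.

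Neighbouring genes went with this split. Csta2 gave 0 UMIs in the 13 WT cells of the lowest range (an interval of up to 37.5 CPM) and was at 1832 and 2052 CPM in the middle and upper ranges. Cstdc6 was at 987 and 754 CPM in the lower ranges and at 61.6 CPM in the upper range, where no cell had over 2 UMIs. In KO, Cstdc6 was at 201 and 95.8 CPM in the middle and upper ranges. In the WT cells over the T gene limit Csta2 was at 195, 2284 and 1228 CPM and Cstdc6 at 929, 517 and 45.5 CPM from the lowest to the upper range. Stfa2, for comparison, was at 10591, 10735 and 9554 CPM in the WT ranges. From the lowest to the upper WT range, Xist gave 6, 1 and 4 UMIs and Y-linked genes gave 4, 12 and 5 UMIs. The 1 Xist UMI of the middle range is under the floor of 3 UMIs. Which mouse a cell came from is not given.

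**Figure D5:**
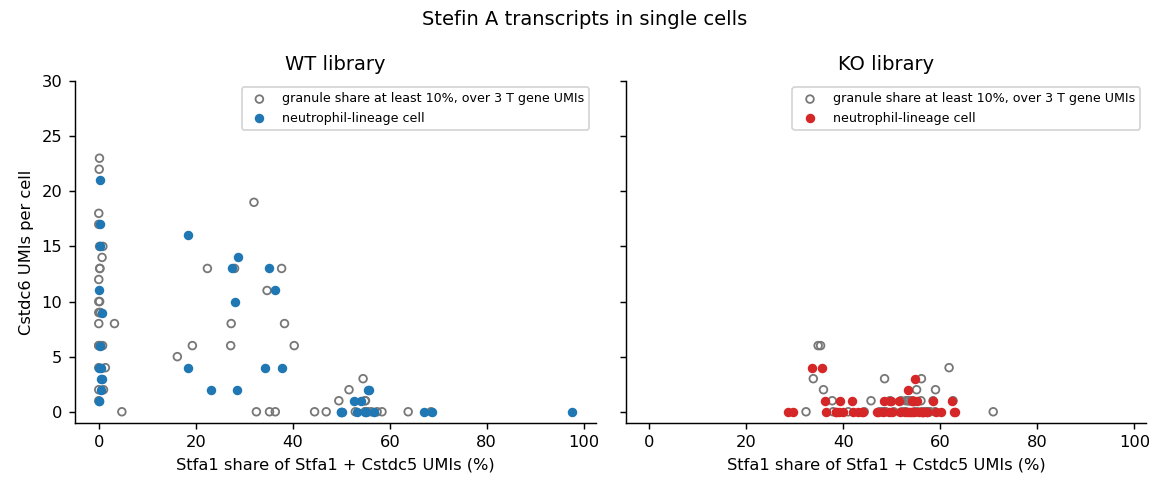
Cstdc6 UMIs per cell against the Stfa1 share of Stfa1 and Cstdc5 UMIs (percent), for neutrophil-lineage cells (filled) and cells over the T gene limit with at least 10% granule UMIs (open), with at least 20 UMIs of both genes. WT cells lie near 0%, from 16.2% to 44.5% and above 46.9%, with Cstdc6 at 0 to 3 UMIs in the last range, whereas KO cells begin at 28.6%.

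Between the libraries, KO cells were at least 2-fold higher than WT cells for 21 of 1038 genes (2.02%) and at least 2-fold lower for 24 (2.31%), with a median log2 ratio of 0.03 over all these genes. With the mean of single-cell CPM in place of summed UMIs, 77 genes were higher and 52 lower. In cells with at least 10% granule UMIs, 15 of 962 genes (1.56%) were at least 2-fold higher and 14 (1.46%) at least 2-fold lower. The numbers of cells and genes were small, and 1 library stood for each genotype, so these folds compare libraries and not genotypes.

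The lowest and highest ratios are given for genes with at least 100 UMIs over both libraries, mitochondrial and rule genes left out. Under that minimum, Prtn3 (84 UMIs in WT and 4 in KO) and Wfdc17 (75 and 5) had still lower ratios. Above it, the lowest ratio was that of Ifitm1, an interferon-induced transmembrane protein. Ifitm1 was at 1429 CPM in WT and 182 CPM in KO, a ratio of 0.128 (0.0904 to 0.176). It was found in 17 of 41 WT cells and 8 of 63 KO cells, and 1 WT cell held 32.5% of the WT UMIs. In T-lineage cells its ratio was 1.49. Among late cells (Retnlg over Camp) the ratio was 0.202 (0.141 to 0.282), with a median of 10.7 UMIs per 10000 in WT (range 0 to 135) and of 0 in KO (0 to 73.7). In WT, 397 of its 459 UMIs were in the 11 cells of the middle Stfa1 range, where it was at 3219 CPM, against 275 and 359 CPM in the ranges below and above. In KO, Ifitm1 was at 511 CPM (339 to 738) in the middle range and at 83.1 CPM (44.2 to 142) in the upper range. Most of its WT UMIs thus lay in cells of the middle Stfa1 range, and KO was lower than WT within both ranges that held KO cells. Among cells over the T gene limit the ratio was 0.237 (0.136 to 0.388).

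Cstdc6 followed at 610 CPM in WT and 120 CPM in KO (ratio 0.197, 0.127 to 0.296). Plac8, a small cysteine-rich protein of myeloid cells, was at 274 and 89.0 CPM (0.325, 0.189 to 0.533), and Hist1h2ap, a replication histone, at 1155 and 365 CPM (0.316, 0.246 to 0.402). S100a6, a calcium-binding protein, was at 2870 and 1420 CPM (0.495, 0.434 to 0.563), and Tspo, a mitochondrial outer membrane protein, at 980 and 481 CPM (0.490, 0.390 to 0.612). The other 4 of the 10 lowest were Serpinb1a (an inhibitor of neutrophil elastase), Lilrb4a, Ifitm2 and Lars2, with ratios of 0.503, 0.522, 0.533 and 0.534. In cells over the T gene limit the ratio of S100a6 was 1.07 (0.946 to 1.20) and that of Plac8 0.354 (0.239 to 0.510), so that the interval included 1 for the former and not for the latter. In T-lineage cells the ratio of S100a6 was 0.0756.

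Among genes with at least 100 UMIs, the highest ratios were those of haemoglobin genes. Under that minimum, Hspa1a had a higher ratio, with 3 UMIs in WT and 49 in KO (log2 ratio 4.34). Hbb-bs was at 121 CPM in WT and 979 CPM in KO, a ratio of 8.07 (5.72 to 11.7), and the ratios of Hba-a1 and Hba-a2 were 7.55 and 6.00. In cells with at least 10% granule UMIs they were 3.13, 2.42 and 1.56, and in T-lineage cells 1.95, 1.86 and 2.27. Alas2, which red cell precursors need for haem synthesis, gave 0 UMIs in the neutrophil-lineage cells of both libraries. The haemoglobin values thus went with the low-share KO cells and with a higher level in KO T-lineage cells, and the part of these in the result was not tested.

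Of the other high ratios, Hsp90aa1, a heat shock chaperone, was at 168 and 463 CPM (2.75, 1.96 to 3.90), H2-K1, an MHC class I heavy chain, at 193 and 539 CPM (2.79, 2.04 to 3.85) and Jun, an immediate early transcription factor, at 162 and 374 CPM (2.31, 1.62 to 3.33), of which 1 cell held 36.5% in WT. Shisa5, Ifi27l2a, Hcst and Dnaja1 (an Hsp40 co-chaperone) had ratios of 2.51, 2.43, 2.06 and 1.95. In cells over the T gene limit H2-K1 had a ratio of 2.02 (1.69 to 2.42) and Hsp90aa1 of 1.79 (1.51 to 2.13), whereas Jun, at 0.980 (0.805 to 1.19), did not differ beyond counting error. With at most 10 T gene UMIs per 10000, the Jun ratio turned to 0.892. H2-K1, Hsp90aa1, Shisa5 and Ifi27l2a were all higher in KO T-lineage cells (1982, 1017, 1368 and 1049 CPM) than in KO neutrophil-lineage cells. T cell genes outside the rule were also higher in KO neutrophil-lineage cells, at 386 CPM in WT and 912 CPM in KO, and their part in these ratios was not tested. Of the 20 genes with the lowest and highest ratios, Ifitm1, Cstdc6, Hbb-bs and Hba-a1 stayed past 2-fold in all 14 alternatives run for them.

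The lists are given by role, beside the 2.02% of all genes that were at least 2-fold higher and the 2.31% at least 2-fold lower in KO. At these shares a count of 0 in a short list is no result about the list. Of the 11 specific granule genes 0 were past 2-fold, with a median log2 ratio of -0.00, and their summed ratio was 1.01 (0.977 to 1.05). Within this list Chil3 was higher in KO, at 1973 CPM in WT and 3053 CPM in KO (1.55, 1.39 to 1.73), and Hp (haptoglobin) was lower, at 1939 and 1300 CPM (0.670, 0.581 to 0.771). The Chil3 ratio was 1.03 with no limit on T genes and 1.65 with at least 10% granule UMIs. Of the 11 gelatinase granule and late genes, 1 was at least 2-fold lower in KO and the median was 0.24, with a summed ratio of 0.873 (0.829 to 0.919). Its most abundant gene, Retnlg, had a ratio of 0.830 (0.778 to 0.885), which turned to 1.45 with at most 10 T gene UMIs per 10000. That gene, Wfdc17, was at 233 and 22.3 CPM, and 1 WT cell held 55 of its 75 UMIs. Of the 7 measured stefin genes 0 were past 2-fold, the median was 0.34 and the summed ratio was 1.27 (1.25 to 1.30). This list leaves out Cstdc6 and Cstdc5, whose reads may be split with Stfa1. Over all 9 genes of the cluster the ratio was 1.07 (1.05 to 1.09).

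NADPH oxidase genes (6 measured, median 0.11), adhesion and chemoattractant receptors (10 measured, median 0.19) and granulocyte transcription factors (4 measured, median -0.27) had 0 genes past 2-fold. Csf3r, the receptor for granulocyte colony-stimulating factor, was at 87.2 and 107 CPM with an interval of the ratio from 0.680 to 2.19, which does not show equal levels. The G2/M list (7 measured) had a median of -0.10 and 0 genes past 2-fold. Lists with 2 or fewer measured genes are given by their sums. Of the interferon-stimulated genes 20 of 22 were too low to compare, and the 22 genes summed to 1329 CPM in WT and 1749 CPM in KO (1.32, 1.14 to 1.51). The p53 target genes summed to 134 and 174 CPM (1.30, 0.819 to 2.05). The S phase genes summed to 666 and 525 CPM (0.789, 0.624 to 0.992), and the inflammatory mediators to 476 and 418 CPM (0.879, 0.672 to 1.14). Among the latter Cxcl2, a neutrophil-attracting chemokine, gave 36 UMIs in WT and 1 in KO.

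A list of 9 genes that earlier results of these data showed to be lower in KO T-lineage cells, of which Zfp335 is 1, had a summed ratio of 0.715 (0.546 to 0.930). It is no independent evidence, and 2 of its genes were measured, Ndufa4 (212 and 134 CPM), a subunit of a respiratory complex, and Actr2 (146 and 107 CPM), a subunit of the Arp2/3 complex.

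Azurophil granule genes were low, with a sum of 473 CPM in WT and 125 CPM in KO (0.263, 0.169 to 0.396), against 206 and 351 CPM in T-lineage cells. Prtn3, proteinase 3, gave 84 UMIs in WT and 4 in KO. Of the 84 UMIs, 41 were in 1 WT cell of 11928 UMIs and 34 in 1 WT cell of 27979 UMIs, so the difference between libraries rests on a pair of cells. The first of these had no Camp, Ltf, Ngp or Retnlg UMI, a granule share of 8.24% that was 99.0% S100a8 and S100a9, 46 UMIs of Ly6c2 and a Stfa1 share of 97.6%. Elane, neutrophil elastase, gave 12 and 1 UMIs and Mpo, myeloperoxidase, 8 and 2 UMIs.

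Of the markers of other lineages, erythroid genes summed to 349 CPM in WT and 2332 CPM in KO, and to 345 and 760 CPM in cells with at least 10% granule UMIs. B cell genes summed to 40.5 CPM in WT and 13.4 CPM in KO, with Cd79a, Ms4a1 and Vpreb3 at 0. Mast cell, basophil and eosinophil genes gave 1 UMI in all, of Mcpt8. The monocyte and macrophage list summed to 1064 CPM in WT and 730 CPM in KO and was mostly Ly6c2, at 893 and 699 CPM, which immature neutrophils also express. T cell genes outside the rule, at the sums given above, were at 4118 and 4012 CPM in T-lineage cells. Their ratio of 2.36 (1.88 to 2.98) was 1.69 in cells with at least 10% granule UMIs, and their part in the differences between the libraries was not tested.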

How the data were processed

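Per the labels and the study's methods, libraries were made with 10x Chromium V3 chemistry and processed by the authors with Cell Ranger 5.0.1 against mm10. The deposited matrices hold UMI counts per gene and barcode, and include barcodes with over 5% mitochondrial UMIs. They held 14524 WT barcodes with 64567991 UMIs and 18134 KO barcodes with 65480052 UMIs over 32285 features. UMIs were summed over cells and scaled to CPM. Ratios carry exact conditional binomial intervals, shares exact Clopper-Pearson intervals, their difference a Newcombe interval and levels exact Poisson intervals, all at 95% (scipy 1.17.1). Log2 ratios had 0.5 added to each sum, ratios to T-lineage cells 1 CPM, and a floor of 3 counts was used. PCR copies are collapsed by UMIs, and intervals cover counting error only. No doublets were removed here, and removing the cells with the highest Scrublet scores (scanpy 1.11.5) was an alternative. Ratio intervals were tested only on simulated Poisson counts, which hold no variation between cells, so the test cannot show that the intervals cover it.

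The genes named are the 6 rule genes and the markers, the 15 genes outside the rule with the highest ratio to T-lineage cells in the lower library (at least 200 UMIs), the 10 lowest and 10 highest KO to WT ratios (at least 100 UMIs, mitochondrial and rule genes left out), the 2 to 4 genes of each list with most UMIs, and Zfp335, Foxp3, Cd4, Il2ra, Ptprc, Xist, Ddx3y and Eif2s3y. Other genes were named after their values were seen, and single values of some list genes are not reported here. Members and lists were chosen with earlier results of these data known. Gm5483 of the stefin list was matched as Cstdc4, and BC100530, BC117090 and Gm4758 were not matched. Cstdc5 and Cstdc6 are outside that list and were added from their values. Gene positions are from GENCODE (GRCm38).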

Additional observations from a re-analysis of the deposited data

Results flagged for a closer look

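Cells that the mitochondrial filter had removed also held neutrophil-lineage transcripts. Of 6468 WT cells with over 5% mitochondrial UMIs, 2 met the granule and T gene limits (0.0309%, exact interval 0.00374 to 0.112%), and of 4364 such KO cells 2 did (0.0458%, 0.00555 to 0.165%). Their mitochondrial shares were 5.04% to 6.26% in WT and 6.61% to 6.80% in KO. These cells were left out of the comparisons, except for the shares given without the mitochondrial filter, which count them.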

How the results depend on the processing

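No paired analysis was possible because there was 1 library per genotype. Removing the cells with the highest Scrublet scores removed 0 neutrophil-lineage cells. Shares moved beyond their counting interval as follows: KO to 0.610% at a granule share of at least 3% and to 0.305% at 10%; WT to 0.296% without a mitochondrial filter; WT to 0.0869% and KO to 0.0145% with 0 T gene UMIs; WT to 1.29% and KO to 1.05% with no T gene limit. Genes past 2-fold moved from 21 higher and 24 lower to 14 lower (granule share 10%), 41 higher (0 T gene UMIs, 120 genes), 127 and 70 (no T gene limit), 77 and 52 (mean of single-cell CPM), 3 lower (thinned to 1000 UMIs), 122 and 104 (at least 20 UMIs) and 1 and 5 (at least 200 UMIs). The median log2 ratio of haemoglobin and other erythroid genes moved from 2.73 to 3.55 (granule share 3%), 1.27 (10%) and 3.70 (mean CPM). That of specific granule genes moved to -0.94 (0 T gene UMIs) and -0.29 (mean CPM), that of NADPH oxidase genes to -0.35 (mean CPM) and -0.31 (thinned), and that of stefin genes from 0.34 to -2.23 (0 T gene UMIs), 0.14 (no T gene limit), -0.15 (mean CPM) and 0.08 (thinned). Chosen after seeing the data, a limit of 10 T gene UMIs per 10000 gave 1.07% in WT, a difference of -0.668 points, 36 genes higher and 79 lower, and medians of 0.51 for stefin and 1.25 for erythroid genes, and leaving out the deepest cell of each library gave 0.24 for stefin genes. Of the genes past 2-fold, those that turned direction were Jun (0.927 with 0 T gene UMIs, 0.892 with 10 per 10000) and Tspo (1.16 with 0 T gene UMIs, where 7 WT and 2 KO cells remained). Ratios under 2-fold also crossed 1, such as those of Lars2 (1.63), Dnaja1 (0.685), Csta2 (0.647), Stfa1 (0.705) and Mmp9 (0.309) with 0 T gene UMIs. The causes were not tested. Of 110 list medians 96 moved little, as did 18 of 27 shares, 19 of 32 gene counts and 419 of 574 ratios of named genes. The median log2 ratio of all genes moved from 0.03 to 0.60 with 0 T gene UMIs and to 0.25 after thinning. With 41 WT and 63 KO cells, genes under 50 UMIs were not compared.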
